A study of Mus musculus with 16 samples.

Results

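The 26 genes described here encode enzymes of cholesterol synthesis and the proteins that sense sterols, move and esterify cholesterol, and turn over lipoprotein receptors. They were chosen by name, not by their values, as the lines of the deposited count table that carry 26 gene symbols, out of 40324 distinct symbols in the table and 14476 genes tested. All 26 passed the filter on low counts and were tested. The count table covers liver RNA from 16 mice of the db/db strain, which lacks a working leptin receptor and becomes obese and diabetic. The control group was 8 mice given an AAV8 vector (an adeno-associated virus that reaches hepatocytes well) encoding GFP, and the other group was 8 mice given AAV8 encoding arcA. Arginine deiminase of bacteria is encoded by a gene called arcA, although the labels do not define arcA, and they do not name the promoter that drove either transgene. Both groups carried the same db/db background, received a virus at about 5 weeks of age as littermates and were 10 weeks old at collection, 5 weeks after injection. The labels give each liver a number but do not say that mice were housed or processed separately, so p-values measure the spread between these livers.

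Libraries held 28912563 to 53520828 counts, and levels are given as CPM, counts scaled to a common library size (TMM-scaled). The ribosomal RNA-overlapping line Gm42418 made up 11.8% of GFP 2, 18.1% of GFP 3, 19.4% of GFP 5 and at least 2.29% of every library. The labelled tissue was checked against 14 hepatocyte marker genes, whose summed level was 83738 to 96834 CPM in GFP and 85681 to 112370 CPM in arcA livers. Markers of immune and stromal cells were lower in arcA livers, and those values stand beside the results they accompany below.

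Cholesterol is built from acetyl-CoA through mevalonate, isoprenoid units, squalene and a long series of sterol intermediates. When sterols in the endoplasmic reticulum membrane are scarce, the protein Scap escorts the transcription factor SREBP-2, encoded by Srebf2, to the Golgi, where proteases release its active part. That part enters the nucleus and raises the genes of nearly every step at once. When sterols are plentiful, Insig proteins hold Scap back, and in the liver the pathway also follows feeding and cholesterol from the diet.

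SREBP-2 binds sterol regulatory elements in promoters together with NF-Y, which binds CCAAT, and Sp1, which binds GGGCGG. Promoter sequences were taken from RefSeq on GRCm38.p6, with 21 of the 26 genes matched, as the 250 bases before the first listed start. Hmgcs1 and Dhcr7 are shown because their levels followed those of the squalene epoxidase gene Sqle most closely, by r averaged over both groups, among the genes that could be matched. Ebp and Mylip are shown because they had the smallest p-values between the groups, a choice made after their values were seen. The Idi1 window belongs with the first pair but lies partly inside the annotated gene and is not shown, and the last 22 bases of the Dhcr7 window were left out for the same reason. Sequences run 5′ to 3′ on the strand of the gene, and capitals mark matches to TCACNCCAC, CCAAT or GGGCGG on either strand.
Hmgcs1 (chr13:119690101-119690350, plus strand): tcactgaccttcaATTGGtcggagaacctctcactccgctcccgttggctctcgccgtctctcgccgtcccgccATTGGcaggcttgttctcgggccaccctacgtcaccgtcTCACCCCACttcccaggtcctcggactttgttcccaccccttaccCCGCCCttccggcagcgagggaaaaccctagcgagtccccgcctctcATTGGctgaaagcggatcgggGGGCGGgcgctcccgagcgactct
Dhcr7 (chr7:143822917-143823144, plus strand): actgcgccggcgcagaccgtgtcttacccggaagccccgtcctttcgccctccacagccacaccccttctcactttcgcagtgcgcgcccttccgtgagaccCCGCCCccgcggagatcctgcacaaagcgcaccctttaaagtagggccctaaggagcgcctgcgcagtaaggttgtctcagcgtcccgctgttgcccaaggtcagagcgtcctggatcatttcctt
Ebp (chrX:8193513-8193762, minus strand): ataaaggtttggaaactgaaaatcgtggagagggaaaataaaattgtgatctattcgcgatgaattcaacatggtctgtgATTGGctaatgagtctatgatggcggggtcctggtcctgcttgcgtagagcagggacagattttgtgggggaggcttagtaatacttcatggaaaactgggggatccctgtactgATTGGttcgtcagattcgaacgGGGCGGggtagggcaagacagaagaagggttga
Mylip (chr13:45389492-45389741, plus strand): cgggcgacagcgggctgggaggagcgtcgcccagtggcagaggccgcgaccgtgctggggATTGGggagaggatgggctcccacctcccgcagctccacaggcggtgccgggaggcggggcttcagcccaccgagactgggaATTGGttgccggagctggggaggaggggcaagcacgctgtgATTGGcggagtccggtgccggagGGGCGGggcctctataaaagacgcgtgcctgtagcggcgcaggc
The Hmgcs1 window held TCACCCCAC, starting 137 bases before the start, with CCAAT on the opposite strand starting 237, 176 and 45 bases before it and GGGCGG on either strand 92 and 24 bases before it. It was the only 1 of 21 windows with TCACNCCAC, a pattern found in 1.02% of the 10338 tested genes that have a window. The looser TCACNNCAC, which includes every TCACNCCAC, was found in 3 of 21 (14.3%; Hmgcs1, Msmo1 and Hsd17b7) against 2.95% of tested genes. CCAAT was found in 18 of 21 (85.7%) against 36.5%, and GGGCGG in 17 of 21 (81.0%) against 57.4%. Both counts include Idi1, whose matches all lie in the part of its window inside the annotated gene. The other windows not shown were not checked for such overlap. The Ebp window held CCAAT 2 times and GGGCGG 1 time, the Mylip window held them 3 times and 1 time, and the Dhcr7 window held GGGCGG 1 time. A match is a description of letters, not a bound site.

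The comparison of arcA with GFP livers asked whether these genes changed with the transgene. Of the 26 genes, 2 rose (Ebp and Scap) and 1 fell (Mylip), by edgeR's quasi-likelihood test with Benjamini-Hochberg adjustment over all tested genes at 0.05. Of all tested genes 10.8% passed in either direction, 4.26% higher and 6.57% lower, so 3 of 26 was near the background share. An unadjusted p under 0.05 by the same test was reached by 5 of the 26, and by 3608 of the 14476 tested genes. Fold changes were positive for 14 genes and negative for 12, with a median of 0.01 on the log2 scale against 0.01 over all tested genes. Most enzymes of the pathway gave wide intervals around small differences, and livers of the same group differed widely.

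**Figure D1:**
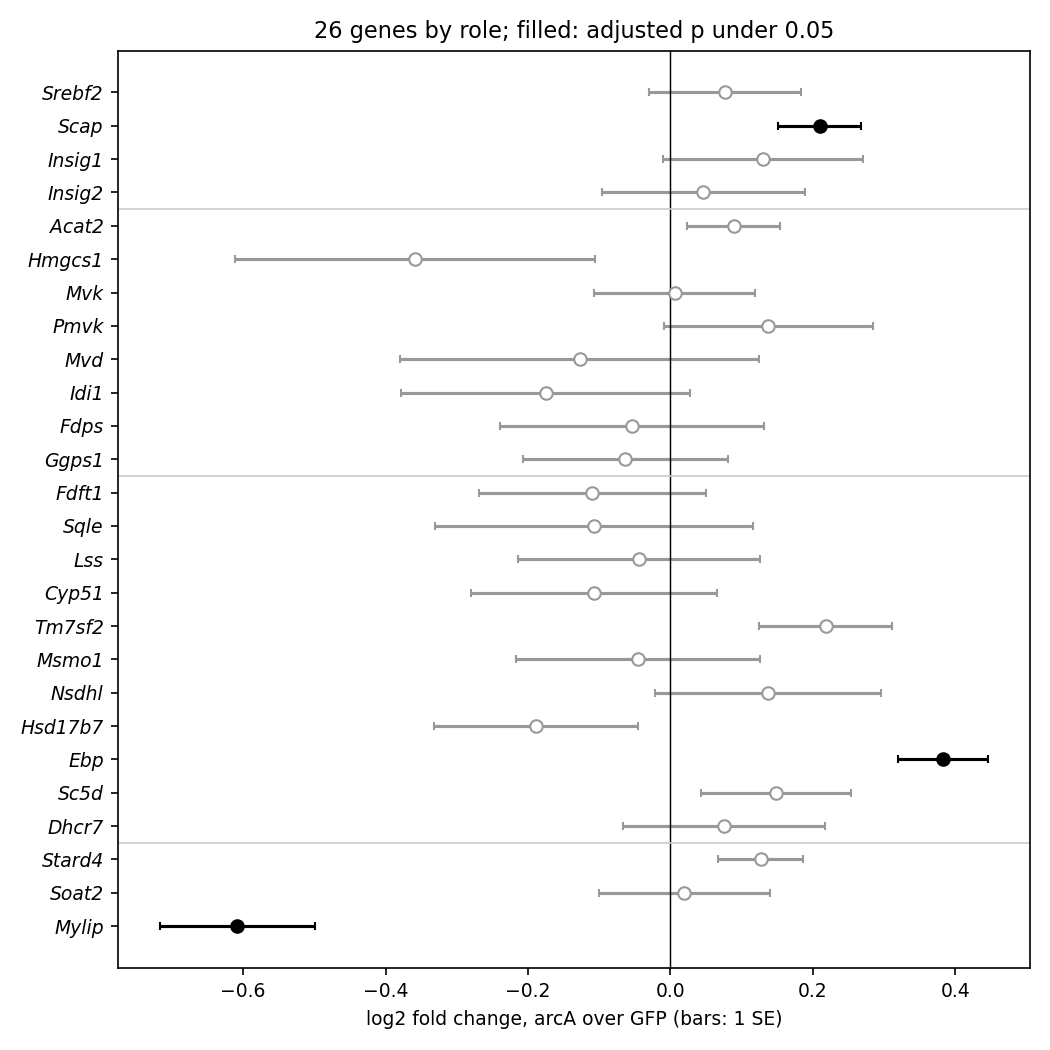
Log2 fold change of each of the 26 genes, arcA over GFP (x axis), by role (y axis, 4 blocks from sterol sensing at the top to transport and receptor turnover at the bottom); points are edgeR estimates from 8 against 8 livers, bars are 1 SE, and filled points passed an adjusted p of 0.05. The 3 filled points are Scap, Ebp and Mylip, and the widest bars belong to mevalonate-step genes such as Hmgcs1 (SE 0.25).

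Among the genes that sense sterols and control the pathway, Scap rose and the other 3 did not pass (median log2 fold change of the 4 genes 0.10). Scap (chr9:110333288-110384950), the SREBP escort, lay between 83.6 and 104 CPM in GFP livers (median 89.0) and between 96.1 and 120 CPM in arcA livers (median 103). All 8 arcA livers were above the GFP median, although the groups overlapped. The difference was 1.16-fold (91.6 ± 7.64 to 106 ± 8.46 CPM, SD, n = 8 each; log2 fold change 0.21, SE 0.06, adjusted p 0.0252 by edgeR's quasi-likelihood test). That call was lost without GFP 2 (adjusted p 0.0665), GFP 5 (0.0504), GFP 6 (0.0515), GFP 7 (0.0530) or arcA 6 (0.0638), each by edgeR.

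Srebf2 (chr15:82147181-82205379), which encodes SREBP-2 itself, ranged from 47.4 to 83.5 CPM in GFP livers (median 55.6) and from 53.3 to 83.7 CPM in arcA livers (median 60.3). The groups covered almost the same range, each with 1 liver near 83 CPM. Its log2 fold change was 0.08 (SE 0.11, adjusted p 0.726 by edgeR), with a 95% interval of -0.13 to 0.29. Insig1, a retention protein whose own gene is raised by SREBP-2, ranged from 187 to 269 CPM in GFP livers (median 209) and from 180 to 392 CPM in arcA livers (median 228). Only arcA 6, at 392 CPM, stood above the highest GFP liver, and the log2 fold change was 0.13 (SE 0.14, adjusted p 0.631 by edgeR). Insig2, the retention protein that hepatocytes express through a liver promoter lowered by insulin, ranged from 197 to 440 CPM in GFP livers (median 306) and from 253 to 374 CPM in arcA livers (median 328). The arcA livers lay inside the GFP range (log2 fold change 0.05, SE 0.14, adjusted p 0.888 by edgeR). Per exon length, Insig2 had the highest level of the 26 genes in GFP livers (RPKM, CPM over exon length in kilobases, 88.9 ± 23.1, SD, n = 8), where Ebp had 74.0 ± 7.84. In arcA livers Ebp was highest at 96.5 ± 5.73 and Insig2 had 91.8 ± 12.98 (SD, n = 8 each), a gap smaller than the SD of Insig2. Insig1 stood at 71.5 ± 11.3 RPKM in GFP livers. These levels depend on the annotated exon length.

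None of the 8 genes of the mevalonate and isoprenoid steps passed, and 5 of the 8 had negative fold changes (median -0.06 on the log2 scale). Hmgcs1 (chr13:119690379-119708260) encodes the synthase that makes HMG-CoA. It ranged from 150 to 497 CPM in GFP livers (median 206) and from 132 to 299 CPM in arcA livers (median 172). GFP 1 had the 497 CPM, and 6 of 8 arcA livers were below the GFP median, but the groups overlapped over most of their range. The log2 fold change of -0.36 was the largest of this step and had an SE of 0.25 (adjusted p 0.423 by edgeR; 95% interval -0.85 to 0.14). Acat2, the cytosolic thiolase that starts the path, was steadier, at 77.9 to 102 CPM in GFP and 84.9 to 106 CPM in arcA livers (log2 fold change 0.09, SE 0.07).

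The 3 enzymes that turn mevalonate into isopentenyl diphosphate gave small differences of both signs. Mvk, mevalonate kinase, had a log2 fold change of 0.01 (SE 0.11), Pmvk, phosphomevalonate kinase, 0.14 (SE 0.15), and Mvd, the decarboxylase, -0.13 (SE 0.25). Mvd was the most variable of these, from 18.6 to 58.2 CPM in GFP and from 22.1 to 56.3 CPM in arcA livers. Idi1, the isomerase that readies isopentenyl units for joining, went from 23.6 to 64.8 CPM in GFP and from 22.8 to 43.6 CPM in arcA livers (log2 fold change -0.17, SE 0.20). Fdps, which joins the units into farnesyl diphosphate, was at 177 ± 55.0 CPM in GFP and 170 ± 44.7 CPM in arcA livers (SD, n = 8 each), a log2 fold change of -0.05 (SE 0.19). Ggps1, which draws farnesyl diphosphate into the branch that supplies protein prenylation, had the lowest level per exon length of the 26 genes, an RPKM of 0.635 ± 0.127 in GFP livers (SD, n = 8). Its log2 fold change was -0.06 (SE 0.14).

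Of the 11 genes of the squalene and sterol steps, Ebp rose and none fell (median log2 fold change -0.04). Ebp (chrX:8185329-8193512) encodes the isomerase that shifts the double bond of the sterol ring late in the path. It lay between 140 and 195 CPM in GFP livers (median 166) and between 201 and 236 CPM in arcA livers (median 225). Every arcA liver was above every GFP liver, the only such case among the 26 genes, while 1.76% of all tested genes had groups that did not overlap. Ebp was 1.30-fold higher (171 ± 18.1 to 223 ± 13.2 CPM, SD, n = 8 each; log2 fold change 0.38, SE 0.06, adjusted p 0.000686 by edgeR's quasi-likelihood test). Leaving out any 1 liver kept the log2 fold change between 0.35 and 0.41 and the call in 16 of 16 fits.

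The next enzymes of the path after Ebp did not pass, and differences between these genes were not tested. Sc5d, the desaturase of the step after it, ranged from 297 to 472 CPM in GFP and from 344 to 564 CPM in arcA livers (log2 fold change 0.15, SE 0.11, adjusted p 0.423 by edgeR). Dhcr7, the reductase that finishes the ring, was at 97.2 ± 25.7 and 103 ± 18.3 CPM (SD, n = 8 each), a log2 fold change of 0.08 (SE 0.14). Tm7sf2, a reductase of an earlier sterol step, ranged from 94.5 to 168 CPM in GFP livers (median 112) and from 125 to 157 CPM in arcA livers (median 134). All 8 arcA livers were above its GFP median, but GFP 1, at 168 CPM, was above them all. The log2 fold change of 0.22 (SE 0.09) had an adjusted p of 0.148 by edgeR, and without GFP 1 it was 0.31 with an adjusted p of 0.00674. Nsdhl, a sterol dehydrogenase of the demethylation complex, ranged from 60.1 to 137 CPM in GFP and from 67.1 to 97.0 CPM in arcA livers (log2 fold change 0.14, SE 0.16, adjusted p 0.657), and had an adjusted p of 0.0489 without GFP 1, both by edgeR.

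The remaining 6 enzymes had negative fold changes, none of which passed. Sqle (chr15:59315077-59331192), squalene epoxidase, is the first oxygen-requiring step and a strongly sterol-responsive gene. It ranged from 35.2 to 113 CPM in GFP livers (median 49.9) and from 40.5 to 75.0 CPM in arcA livers (median 47.2). GFP 1 was highest of all, the other 7 GFP livers reached 57.3 CPM at most, and the groups overlapped throughout. The log2 fold change was -0.11 (SE 0.22, adjusted p 0.827 by edgeR), with a 95% interval of -0.54 to 0.33. Fdft1, squalene synthase, had -0.11 (SE 0.16), Lss, the cyclase that makes lanosterol, -0.04 (SE 0.17), and Cyp51, the lanosterol demethylase, -0.11 (SE 0.17) as log2 fold changes. Msmo1, which removes sterol methyl groups together with Nsdhl and Hsd17b7, had -0.05 (SE 0.17), and Hsd17b7 had -0.19 (SE 0.14).

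Of the 3 genes of transport, esterification and receptor turnover, Mylip fell and the other two did not pass (median log2 fold change 0.02). Mylip (chr13:45389742-45412022) encodes an E3 ubiquitin ligase that sends lipoprotein receptors to breakdown and is raised by the sterol-activated receptor LXR. It lay between 4.99 and 9.11 CPM in GFP livers (median 6.85) and between 3.89 and 5.49 CPM in arcA livers (median 4.36). All 8 arcA livers were below the GFP median, and the groups overlapped only through GFP 3 at 4.99 CPM and arcA 6 at 5.49 CPM. The arcA level was 0.656 of the GFP level (6.80 ± 1.25 to 4.46 ± 0.522 CPM, SD, n = 8 each; log2 fold change -0.61, SE 0.11, adjusted p 0.00129 by edgeR's quasi-likelihood test). The fall stayed between -0.67 and -0.55 with any 1 liver left out.

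Stard4, a carrier that moves cholesterol between membranes, was the least variable of the 26 in GFP livers, at 78.5 to 86.2 CPM, and ranged from 80.01 to 115 CPM in arcA livers. Its log2 fold change was 0.13 (SE 0.06, adjusted p 0.189 by edgeR). Soat2, which esterifies cholesterol for lipoprotein export in hepatocytes, ranged from 11.98 to 20.2 CPM in GFP livers (median 14.0) and from 12.3 to 19.6 CPM in arcA livers (median 14.5). Its groups covered nearly the same range (log2 fold change 0.02, SE 0.12, adjusted p 0.946 by edgeR).

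**Figure D2:**
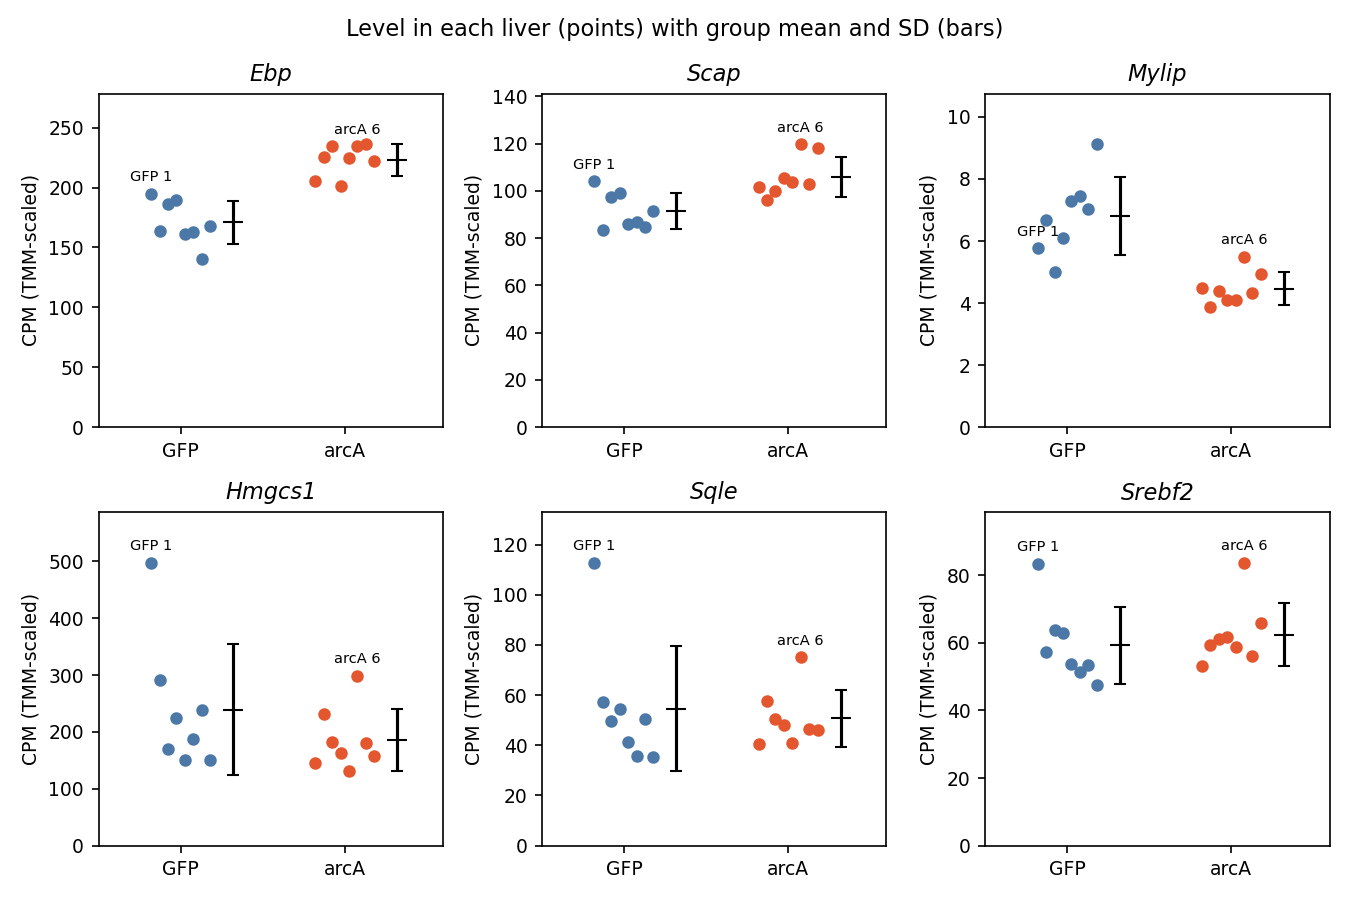
CPM (y axis, from 0) of 6 genes in each liver (points, 8 GFP in blue and 8 arcA in orange), with the group mean and SD as bars at the side; GFP 1 and arcA 6 are named. Ebp is the only panel without overlap (140 to 195 against 201 to 236 CPM), while Hmgcs1, Sqle and Srebf2 overlap and have GFP 1 or arcA 6 far above the rest.

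Marker genes of other cell types also differed between the groups. Of 13 macrophage and Kupffer cell markers, 8 were lower in arcA livers and 0 higher (median log2 fold change -0.78), and their summed level was 335 to 548 CPM in GFP and 139 to 477 CPM in arcA livers. All 9 tested of 12 T cell markers were also lower (median -3.76; 19.0 to 40.4 against 1.21 to 5.26 CPM summed over the list), as were 7 of 9 stellate cell markers (median -0.52; 289 to 379 against 184 to 275 CPM). Lower too were 6 of 9 markers of lipid-associated macrophages, 5 of 5 tested markers of B and plasma cells and 1 of 7 endothelial markers, while 0 of 5 bile duct markers passed. In bulk tissue, fewer cells of a type and less RNA per cell cannot be told apart. The arcA liver with the most macrophage marker RNA was arcA 3, at 477 CPM inside the GFP range, and its Mylip level of 4.39 CPM lay below every GFP liver. Its Ebp level of 234 CPM lay above every GFP liver. The same held for Ebp in every other arcA liver, and for Mylip in all but arcA 6, so these values do not set arcA 3 apart. Its summed T cell markers, at 5.26 CPM, were still below every GFP liver. Across livers of 1 group, the 3 genes were set against the summed macrophage markers on the log2 scale, as 6 relations added after the data were seen. In GFP livers Ebp had r = -0.80 (exact permutation p 0.0235, adjusted 0.141) and rho = -0.71 (exact permutation p 0.0576, adjusted 0.173), and r = -0.47 without GFP 3 and GFP 7, the livers farthest from the median. In arcA livers its r was 0.40 (exact permutation p 0.310, adjusted 0.372) and rho 0.43 (exact permutation p 0.299, adjusted 0.359), and r was 0.45 without arcA 3 and arcA 5. Mylip had r = 0.45 in GFP livers (exact permutation p 0.263, adjusted 0.372; rho = 0.55, exact permutation p 0.171, adjusted 0.342) and 0.31 without the 2 farthest. In arcA livers Mylip had r = 0.47 (exact permutation p 0.272, adjusted 0.372; rho = 0.74, exact permutation p 0.0458, adjusted 0.173) and 0.97 without arcA 3 and arcA 5. Scap had r = -0.52 in GFP livers (exact permutation p 0.163, adjusted 0.372; rho = -0.43, exact permutation p 0.299, adjusted 0.359) and -0.31 without the 2 farthest. In arcA livers Scap had r = 0.20 (exact permutation p 0.588, adjusted 0.588; rho = 0.21, exact permutation p 0.619, adjusted 0.619) and 0.95 without them. None of the 6 passed after adjustment, and the values of Mylip and Scap in arcA livers turn on those 2 livers. Of 14 hepatocyte markers, 2 were higher and 0 lower (median 0.19). Scaling on hepatocyte markers moved the median log2 fold change of all tested genes to -0.17. Under it Ebp was at 0.21 (adjusted p 0.0325), Mylip at -0.80 (adjusted p 0.000348) and Scap at 0.04 (adjusted p 0.731), all by edgeR. The part of cell composition in these results was not tested.

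Other genes of sterol control were read from lists, beside the 10.8% of all tested genes that passed. Of 15 partners of sterol sensing, 2 rose and 1 fell (median log2 fold change 0.11). Mbtps1, the first Golgi protease that cleaves SREBPs, went from 50.7 ± 1.72 to 56.8 ± 3.22 CPM (SD, n = 8 each) without overlap (log2 fold change 0.16, SE 0.04, adjusted p 0.0165 by edgeR). Erlin2, an endoplasmic reticulum protein that takes part in the breakdown of sterol-regulated proteins, went from 25.8 ± 0.723 to 30.8 ± 2.02 CPM (log2 fold change 0.25, SE 0.05, adjusted p 0.00138 by edgeR). Rnf145, a sterol-responsive ubiquitin ligase that acts on Scap and is raised by LXR, went from 13.1 ± 3.73 to 9.10 ± 0.990 CPM (log2 fold change -0.53, SE 0.14, adjusted p 0.0202 by edgeR). With hepatocyte marker scaling Mbtps1 turned to -0.02, relative to the -0.17 of all genes, and with library size alone or hepatocyte marker scaling neither Mbtps1 nor Erlin2 passed. Mbtps1 also did not pass without GFP 2, 3 and 5 or without arcA 3 and 8.

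Among 15 other genes linked to SREBP-2, Cyb5b, an electron donor of the outer mitochondrial membrane, rose (log2 fold change 0.22, SE 0.06, adjusted p 0.0259 by edgeR) and none fell (median of the list 0.09). The Cyb5b call was lost without GFP 2, GFP 3, GFP 4, GFP 5, arcA 2 or arcA 6, and also with library size alone, the filter of 1 CPM in 8 libraries, hepatocyte marker scaling (0.03), without GFP 2, 3 and 5, and without GFP 1 and arcA 6. None of 11 genes of the isoprenoid branch passed (median 0.04). Of 15 genes of uptake and intracellular sterol transport, none rose and 2 fell (median -0.03). Soat1, the esterification enzyme of macrophages and many other cells, went from 2.72 ± 0.499 to 1.57 ± 0.511 CPM (log2 fold change -0.78, SE 0.19, adjusted p 0.0098 by edgeR). Stard5, a sterol and bile acid carrier, went from 87.6 ± 9.71 to 76.4 ± 3.80 CPM (log2 fold change -0.20, SE 0.06, adjusted p 0.0408 by edgeR), a call lost without GFP 6, GFP 7, GFP 8, arcA 1, arcA 3, arcA 4 or arcA 5, and also with library size alone, with no filter and without arcA 3 and 8. None of 12 lipogenic genes driven by SREBP-1c passed (median log2 fold change -0.25), and none of 13 clock genes did (median 0.01).

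The 26 genes varied widely from liver to liver within a group. Their median SD of log2 CPM was 0.32 in GFP and 0.24 in arcA livers, against 0.20 and 0.19 over all tested genes. The SD was larger in GFP livers for 23 of the 26 genes, a count that was not made over all tested genes. GFP 1 stood apart from the other GFP livers in 12 of the 26, by the Dixon test on CPM given below. The ratio of the highest to the lowest liver reached 3.32 for Hmgcs1, 3.20 for Sqle and 3.14 for Mvd in GFP livers, and 2.26, 1.85 and 2.54 in arcA livers. At the other end stood Stard4 at 1.10 in GFP and Ebp at 1.17 in arcA livers.

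A single liver in each group led most of the genes. GFP 1 had the highest level of its group for 20 of 26 genes, while it was highest for 16.1% of all tested genes. arcA 6 had the highest level for 22 of 26 genes, against 13.8% of all tested genes. Their level over the median of the other livers of the group had a median of 1.62-fold in GFP 1 and 1.35-fold in arcA 6 over the 26 genes. GFP 1 was 2.65-fold above the others for Hmgcs1, 2.27-fold for Sqle and 1.03-fold for Stard4. arcA 6 was 1.96-fold above for Mvd, 1.74-fold for Insig1 and 1.33-fold for Stard4. Lowest levels gathered too, with arcA 5 lowest for 13 genes and GFP 3 for 10. The shares of all tested genes that were lowest in these livers were not counted. GFP 3 was the smallest library (28912563 counts, 18.1% of them Gm42418), and it was the highest GFP liver for 17.2% of all tested genes. Total counts of GFP 1 and arcA 6 were 42070195 and 41743062, within the range of the other libraries, and Gm42418 took 3.41% and 5.71% of them. Without both livers, 3 of the 26 genes were higher (Ebp, Scap and Tm7sf2) and Mylip was lower, a comparison added after these livers were seen to stand apart.

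**Figure D3:**
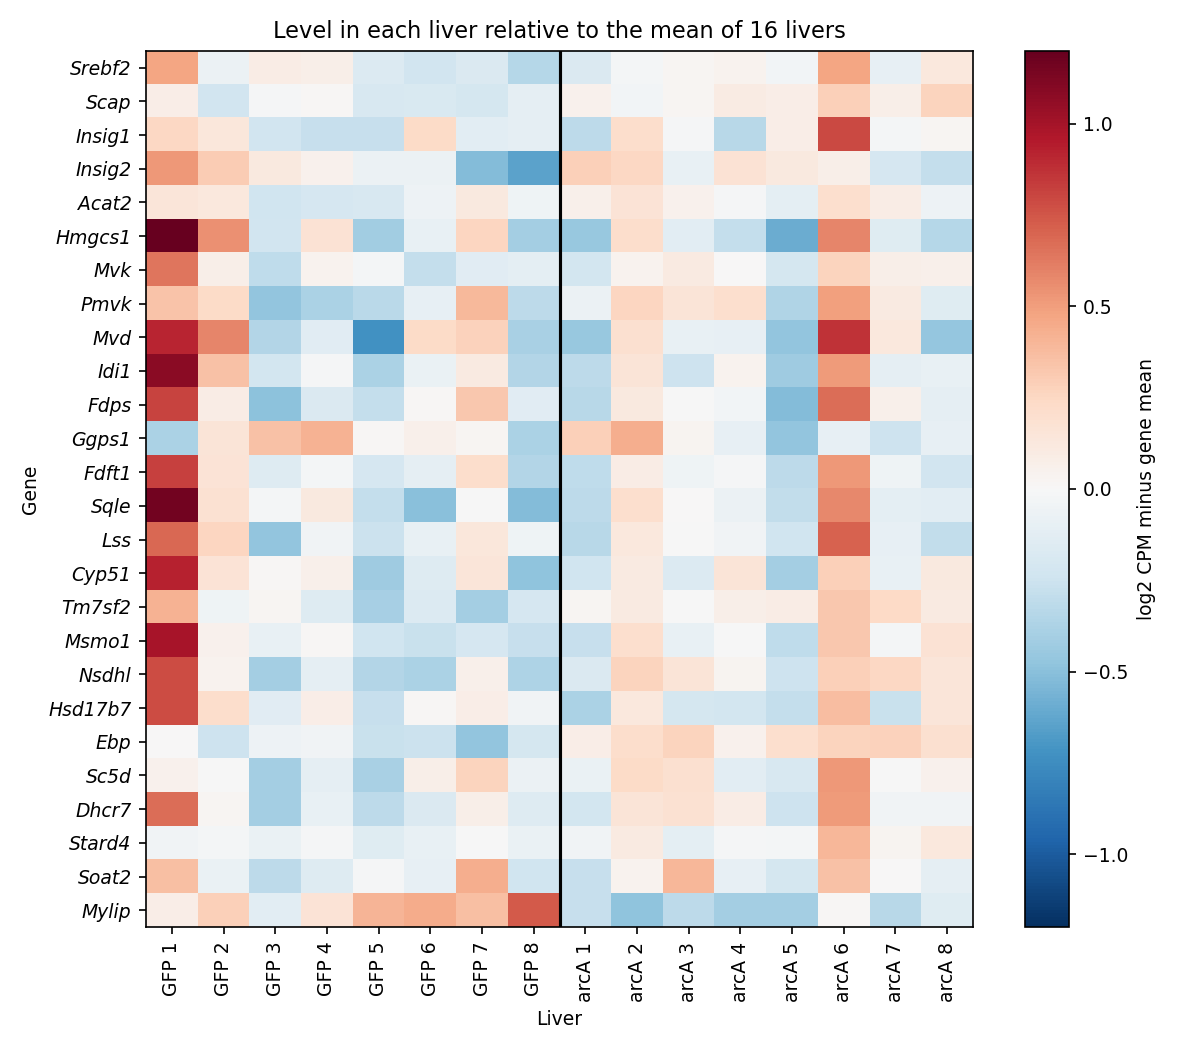
Log2 CPM of the 26 genes (y axis, ordered by role) in each of 16 livers (x axis; GFP left and arcA right of the black line) minus the mean of each gene over all livers, as colour from blue (lower) to red (higher). GFP 1 and arcA 6 form red columns through the enzymes, being highest in their group for 20 and 22 genes, while the Ebp and Mylip lines change colour at the line between the groups.

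The genes moved together across livers of the same group. Over the 325 pairs of the 26 genes, the median Pearson r of log2 CPM was 0.61 in the 8 GFP livers and 0.70 in the 8 arcA livers. An r of at least 0.7 was reached by 40.6% of pairs in GFP and 51.1% in arcA livers, while 3.43% and 3.41% of all pairs of tested genes reached it. Pairs share livers and are not independent, so these shares carry no test. The median r over pairs was lower without the leading liver of each group, at 0.39 without GFP 1 and 0.39 without arcA 6. Fdft1, squalene synthase, had the highest median r with the other genes in GFP livers (0.80, with 16 of 25 at 0.7 or above), and Sqle in arcA livers (0.84, with 19 of 25). Ggps1 had a median of -0.34 in GFP livers, although its r with Sqle there went from -0.20 to 0.72 without GFP 1. Mylip stood apart in GFP livers with -0.33, and Insig2 had a median of -0.09 in arcA livers.

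**Figure D4:**
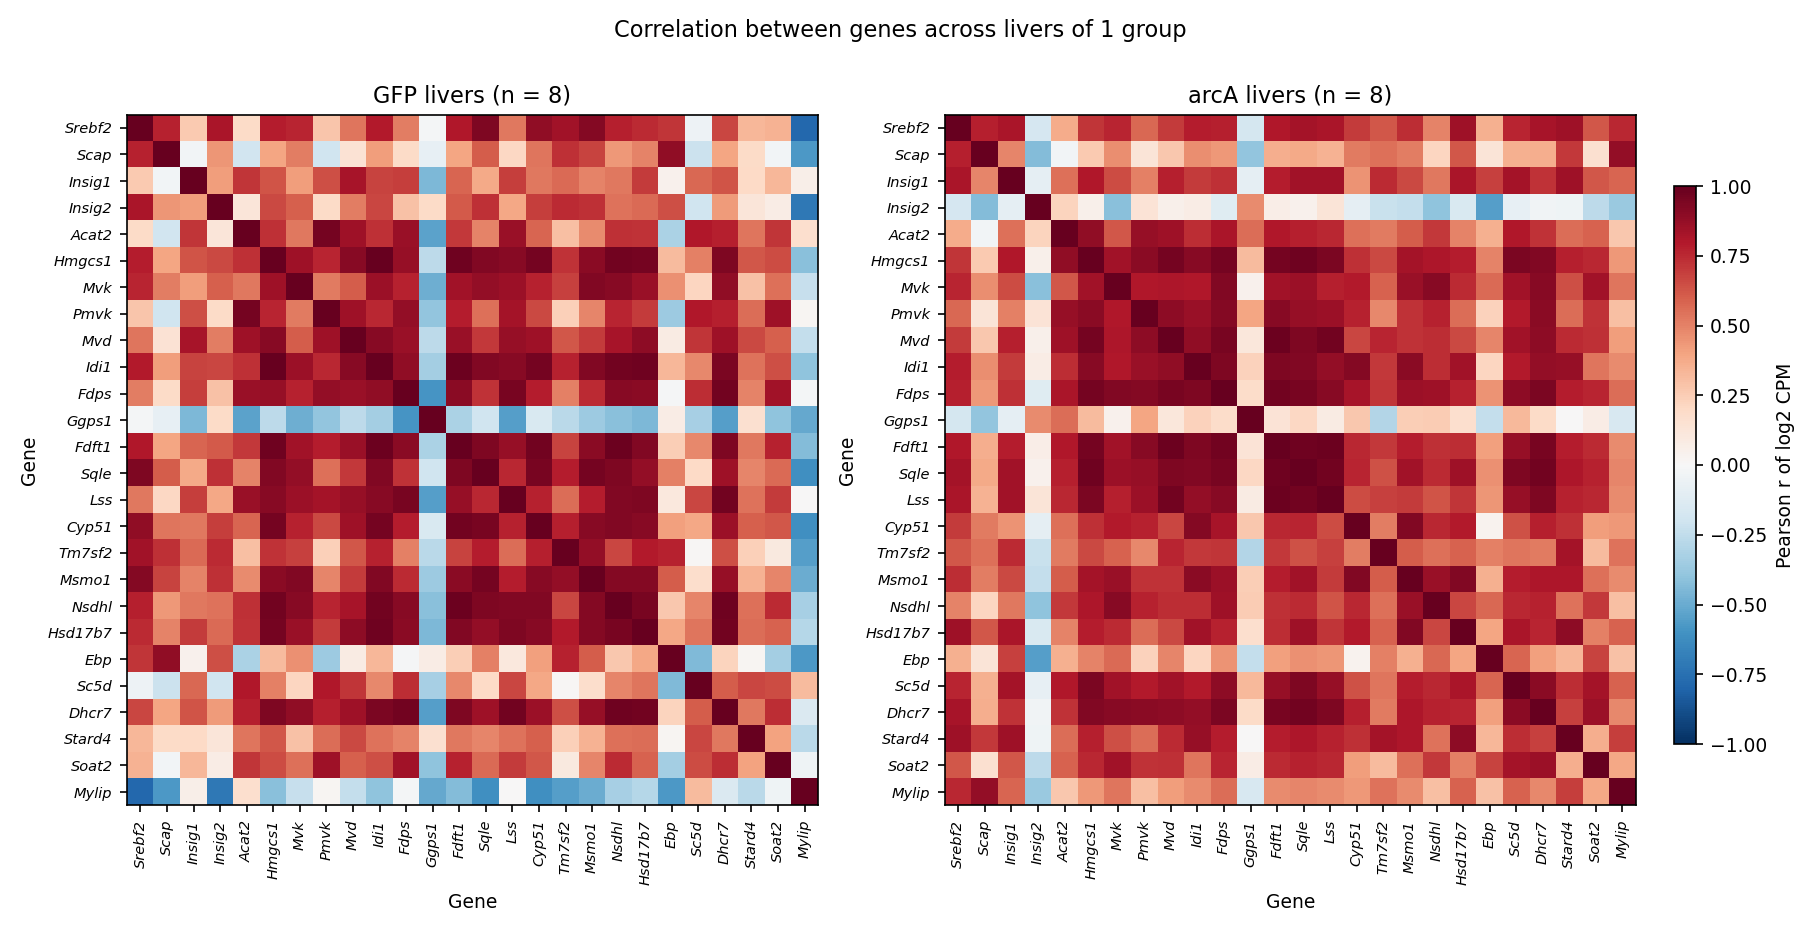
Pearson r of log2 CPM between each pair of the 26 genes (both axes, ordered by role) across 8 GFP livers (left) and 8 arcA livers (right), from blue (-1) to red (1). Most of the block of synthesis enzymes is red in both panels, Ggps1 is pale or blue, the Mylip line is largely blue in GFP livers (median -0.33) and red in arcA livers (0.47), and the Insig2 line is red in GFP livers (0.51) and pale in arcA livers (-0.09).

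Sqle was used as the reference for a test of this co-variation, with an exact two-sided permutation test over 40320 orders of 8 livers and Benjamini-Hochberg adjustment over 50 relations (25 genes in 2 groups). Of the 25 other genes, 7 passed in GFP livers by Pearson r (Srebf2, Hmgcs1, Idi1, Fdft1, Cyp51, Msmo1 and Nsdhl) and 15 in arcA livers, all with positive r. In both groups 6 passed, namely Hmgcs1, Idi1, Fdft1, Cyp51, Msmo1 and Nsdhl. By Spearman rho, 5 passed in GFP and 9 in arcA livers, with Hmgcs1 and Fdft1 in both. The median r with Sqle was 0.73 in GFP and 0.84 in arcA livers, and whether the groups differ in this was not tested.

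The closest partner in GFP livers was Msmo1, with r = 0.96 (exact permutation p 0.00015, adjusted 0.00744) and rho = 0.98 (exact permutation p 0.000397, adjusted 0.00992). Without the 2 livers farthest from the median of Sqle, GFP 1 and GFP 8, its r was 0.87. In arcA livers Hmgcs1 had r = 0.98 (exact permutation p 0.000595, adjusted 0.00868) and rho = 0.95 (exact permutation p 0.00114, adjusted 0.0143), and r = 0.87 without arcA 2 and arcA 6. Dhcr7 had r = 0.96 in arcA livers (exact permutation p 0.000397, adjusted 0.00868) and rho = 0.93 (exact permutation p 0.00223, adjusted 0.0223), and r = 0.98 without those 2 livers.

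Many of the other relations rested on the outermost livers. Without the 2 farthest livers the median r with Sqle was 0.38 in GFP and 0.64 in arcA livers, and of the 15 and 19 genes with an r of at least 0.7 with all livers, 3 and 9 kept it. Stard4 in GFP livers reached 0.71 only without them, from 0.49 with all livers. For Srebf2 in GFP livers r went from 0.94 to 0.67, for Idi1 from 0.92 to 0.60 and for Fdft1 from 0.93 to 0.60. Without GFP 1 alone 1 gene passed in GFP livers, without GFP 2 the number was 3 and without GFP 8 it was 4. Without arcA 6 alone 5 genes passed in arcA livers, and without arcA 2 the number was 9. Insig1, a direct SREBP-2 target, had r = 0.84 with Sqle in arcA livers (exact permutation p 0.0329, adjusted 0.0658) but rho = 0.50 (exact permutation p 0.216, adjusted 0.3002), and r = 0.08 without arcA 2 and arcA 6.

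**Figure D5:**
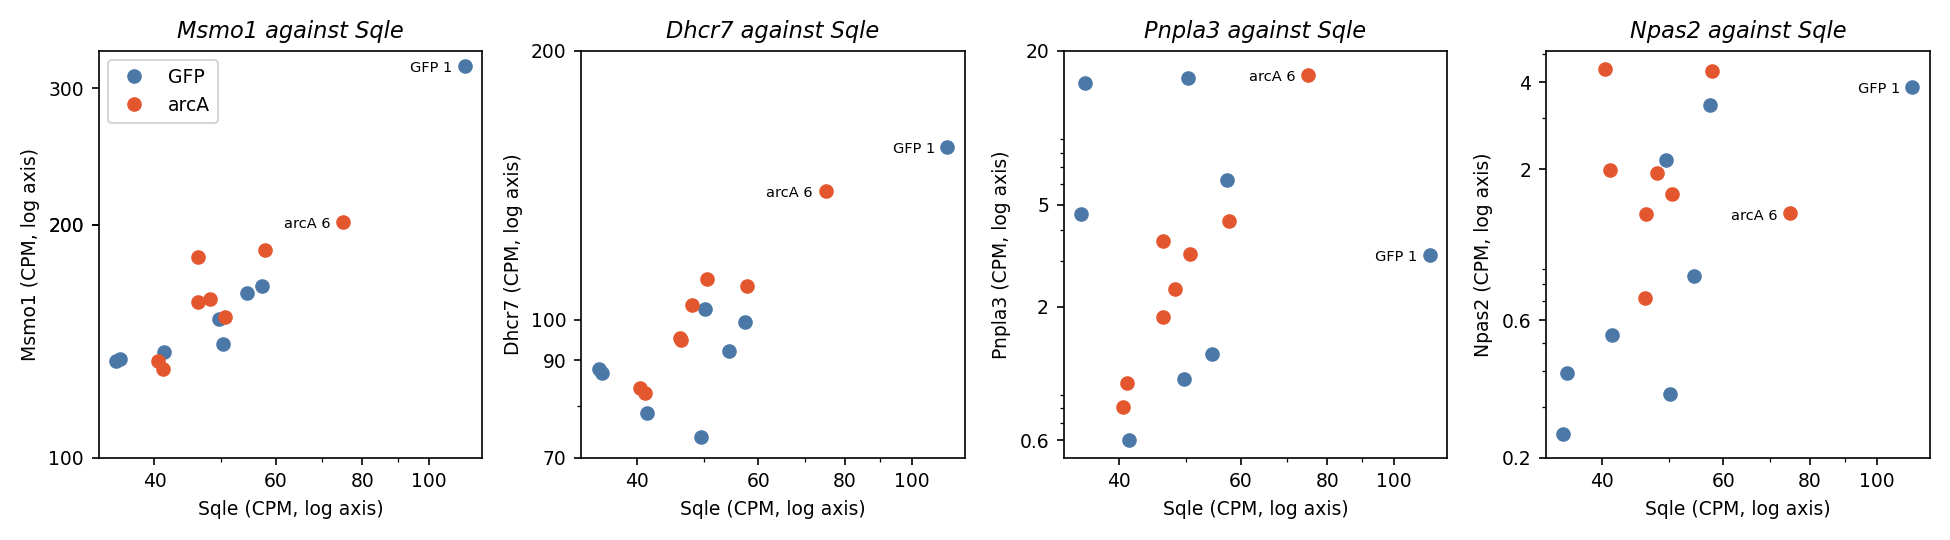
Level of Msmo1, Dhcr7, Pnpla3 and Npas2 (y axes, CPM on log axes) against Sqle (x axis, CPM on a log axis) in each liver (blue GFP, orange arcA), with GFP 1 and arcA 6 named. By Pearson r, Msmo1 passed with Sqle in both groups and Dhcr7 in arcA livers only (r 0.84 in GFP livers, 0.35 without GFP 1). For Msmo1 in arcA livers rho was 0.76 and did not pass, and r was 0.68 without arcA 2 and arcA 6. Pnpla3 is highest in arcA 6 among arcA livers (16.1 CPM) and at 3.18 CPM in GFP 1, the liver with the most Sqle.

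The livers that led cholesterol synthesis differed in other lipid genes. The summed level of the 12 lipogenic genes was 10199.5 CPM in GFP 1, within the GFP range of 3958 to 27881 CPM, and 23964 CPM in arcA 6, the highest of the arcA livers, whose lowest had 8777 CPM. Pnpla3, a lipid droplet protein raised by SREBP-1c and insulin, was at 3.18 CPM in GFP 1 and 16.1 CPM in arcA 6. Across the lipogenic genes the median r with Sqle was -0.14 in GFP and 0.66 in arcA livers (0.42 without arcA 6). Across the clock genes it was -0.70 in GFP (-0.56 without GFP 1) and 0.13 in arcA livers (-0.26 without arcA 6). Single clock genes in GFP livers ran from -0.91 to 0.78, so that median does not describe each of them. Npas2, a clock activator, was at 3.86 CPM in GFP 1, the highest GFP liver, and 1.404 CPM in arcA 6. Some levels followed the liver number, which was seen after the values were known. From GFP 1 to GFP 8, Npas2 fell at every step to 0.241 CPM, and Insig2 from 440 to 197 CPM. From arcA 1 to arcA 8, with steps both ways between, Npas2 went from 4.44 to 0.714 CPM and Insig2 from 374 to 253 CPM. Dbp, another clock gene, ran the other way, also with steps both ways between. It went from 10.9 CPM in GFP 1 to 42.5 CPM in GFP 8, and from 19.4 CPM in arcA 1 to 31.3 CPM in arcA 8. The clock gene Nr1d1 had no steady order in either group. Sqle, the reference of the correlation tests, went from 113 CPM in GFP 1 to 35.2 CPM in GFP 8, also with steps both ways. In arcA livers Sqle had no such order. The permutation tests took no account of the liver number. The labels do not say whether the numbers follow an order of collection. Collection times and feeding state are not given in the labels, and their part in the liver-to-liver spread was not tested. Pnpla3, Npas2, Dbp and Nr1d1 were picked after their values were seen.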

How the data were processed

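Liver RNA of 16 mice was sequenced, 1 library a liver. The authors deposited unnormalized counts for each gene symbol, made with STAR 2.5.1a and featureCounts 1.4.6-p5 on GRCm38, per the submitters' processing notes. Trizol RNA and oligo-dT were used, per the labels' protocols. Annotation release, strand setting and the treatment of read mates were not given in the sources used here. Among counts from 1 to 20, 69.8% were even. Exons of 9 of the 26 genes overlap another annotated gene, so their reads cannot be told apart with certainty. Fdft1 overlaps Ctsb (18.3% of its exon bases, opposite strand), which has its own line in the count table. Fdps overlaps Gm43738 (26.7%), which has no line there, and neither have the genes that overlap Hmgcs1 and Idi1.

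Of 40757 lines, 348 exact copies were removed and 85 lines that repeated a symbol were summed. Groups came from the labels. The test was edgeR 4.0.16 (R 4.3.3; TMM, filterByExpr, robust quasi-likelihood F test, group as the only term), adjusted by Benjamini-Hochberg over 14476 genes at a threshold of 0.05, and the 95% intervals are normal approximations from the SE. Log2 CPM for correlations used a prior count of 2. The two-sided permutation p is 2 times the smaller tail; counting absolute r, the rule tried first, gave 10 genes in GFP and 17 in arcA livers instead of 7 and 15. Coordinates and exon lengths came from GENCODE M21 by symbol (26 of 26 matched), and promoters from RefSeq. The test scripts were tested on simulated data.

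All 26 genes are named; every liver's range is given for those that passed and for Sqle, Hmgcs1, Srebf2, Insig1, Insig2 and Soat2; of other lists, those that passed, at most 4 by p. Tm7sf2, Pnpla3, Npas2, Dbp, Nr1d1, Rdh11 and the promoters of Ebp and Mylip were added after their values were seen. The genes and lists were chosen with earlier results of these data known. Alternatives were other scalings, filters, DESeq2 1.42.0, limma 3.58.1 (voom, with quality weights), sva 3.50.0 with 5 surrogate variables, the replicate number as a block, and livers left out. Some genes of the pathway are not reported here.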

Additional observations from a re-analysis of the deposited data

Results flagged for a closer look

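In 19 of 52 groups of 8 livers (26 genes in 2 groups), the highest liver stood apart from the others by Dixon's test (its gap to the next liver, over the group's range, exceeded the 95% critical value); chance flags about 1 group in 20, which is about 2.6 of 52. The test was run on CPM, not on the log2 CPM used for the correlations, where gaps at the high end are smaller. It was not run on log2 CPM, so the count of 19 holds for CPM only. The chance share holds for normally distributed values, which was not checked. The genes share livers, so the 52 groups are not independent. The liver was GFP 1 in 12 cases and arcA 6 in 7.

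In GFP 1, of the control and early steps, Srebf2 was at 83.5 CPM, Hmgcs1 at 497 CPM, Mvk at 38.8 CPM and Idi1 at 64.8 CPM. Of the squalene and sterol steps in GFP 1, Fdft1 was at 215 CPM, Sqle at 113 CPM, Cyp51 at 190 CPM, Tm7sf2 at 168 CPM, Msmo1 at 321 CPM, Nsdhl at 137 CPM, Hsd17b7 at 94.4 CPM and Dhcr7 at 156 CPM. In arcA 6, Srebf2 was at 83.7 CPM, Insig1 at 392 CPM, Mvd at 56.3 CPM, Fdps at 267 CPM, Fdft1 at 175 CPM, Lss at 78.1 CPM and Stard4 at 115 CPM. On CPM, Srebf2 and Fdft1 were set apart in both livers, and whether they are on log2 CPM was not tested.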

How the results depend on the processing

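Ebp and Mylip passed in 16 of 16 fits with 1 liver left out and in 13 of 13 other alternatives. Scap passed in 11 of 16 and 10 of 13. Of 754 values of the 26 genes under alternatives, 674 kept direction and call, 8 lost a call, 6 gained one, and 66 changed sign without a call on either side. Of the 26 genes, 1 was higher with library size alone, with hepatocyte marker scaling and without GFP 2, 3 and 5, and 4 with surrogate variables; with 1 liver left out the number ranged from 1 to 4 (4 without GFP 1; 1 without GFP 2, 5, 6, 7 or arcA 6), and 1 gene was lower in every such fit. Of all tested genes, 617 were higher and 951 lower; the higher count was 253 with library size alone, 407 with a filter of 1 CPM in 8 libraries and 369 without GFP 2, 3 and 5, and ranged from 389 (without GFP 2) to 638 with 1 liver left out (lower: 731 to 1046). With hepatocyte marker scaling, 61 were higher and 2075 lower, and Mbtps1 turned to -0.020.

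Genes passing with Sqle numbered 12 in GFP livers with hepatocyte marker scaling and 9 in arcA livers by Spearman rho, and with 1 liver left out from 1 to 10 (GFP) and from 5 to 16 (arcA). The median r with Sqle then went from 0.41 to 0.81 over GFP livers and from 0.67 to 0.88 over arcA livers, and the median over pairs from 0.39 to 0.69 and 0.39 to 0.75. The causes were not tested.

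Same-numbered livers had correlations of deviations from -0.05 to 0.16, and 2 of 8 numbers matched best with their own, so the numbers were not taken to pair the livers. That check ran over all tested genes and could miss an order carried by a few of them. With the replicate block, 592 genes were higher and 876 lower, and of the 26 genes 2 were higher and 1 lower; of the named genes, Stard5 lost its call. Ggps1, Mylip, Soat1, Npas2 and Pnpla3 had group means under 10 CPM, where counting error is larger.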

Other observations

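Some of the 26 genes had a different relation to Sqle in each group; whether the groups differ was not tested, and these genes were picked after their values were seen. Insig2 had r = 0.73 with Sqle in GFP livers (exact permutation p 0.0264, adjusted 0.0575; rho = 0.81, exact permutation p 0.0218, adjusted 0.0680), which was 0.29 without GFP 1 and GFP 8. In arcA livers Insig2 had r = 0.04 (exact permutation p 0.971, adjusted 0.971; rho = -0.10, exact permutation p 0.840, adjusted 0.875), and -0.53 without arcA 2 and arcA 6. Sc5d had r = 0.20 in GFP livers (exact permutation p 0.670, adjusted 0.684; rho = 0.17, exact permutation p 0.703, adjusted 0.764), and 0.06 without the 2 farthest livers. In arcA livers Sc5d had r = 0.93 (exact permutation p 0.00288, adjusted 0.0180; rho = 0.79, exact permutation p 0.0279, adjusted 0.0735), and 0.70 without them. Mylip had r = -0.61 in GFP livers (exact permutation p 0.107, adjusted 0.152; rho = -0.74, exact permutation p 0.0458, adjusted 0.0881), and -0.49 without the 2 farthest. In arcA livers Mylip had r = 0.49 (exact permutation p 0.266, adjusted 0.302; rho = -0.05, exact permutation p 0.935, adjusted 0.954), and 0.06 without them.

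Among the 15 other genes linked to SREBP-2, the median r with Sqle was 0.14 in GFP livers (-0.03 without GFP 1) and 0.79 in arcA livers (0.44 without arcA 6). Rdh11, a retinal reductase raised by SREBPs, was at 67.8 CPM in GFP 1 and 79.7 CPM in arcA 6, the highest liver of each group. Its r with Sqle was 0.73 in GFP livers (0.36 without GFP 1) and 0.95 in arcA livers (0.84 without arcA 6). Rdh11 was picked after its values were seen, and these relations were not tested.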
